A study of Mus musculus with 6 samples.

Results

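The sarcoplasmic reticulum calcium cycling genes of the mouse heart were examined in whole hearts after myocardial infarction. They are 10 genes: the release channel Ryr2, the calcium pump Atp2a2 and its inhibitor Pln, the luminal calcium-binding proteins Casq2 and Hrc, the junctional proteins Trdn, Asph and Jph2, the L-type channel subunit Cacna1c and the sodium-calcium exchanger Slc8a1. Members were taken by gene symbol, and all 10 were found among the 22206 features of the array, with 1 feature each. Expression had been measured on Clariom S mouse arrays, with 1 array per heart and 2 hearts in each of 3 groups. The first group, TTg at 3 months after infarction, carried Tcf21iCre, Tomato and MGTH2A. The other two groups were Ctrl hearts with Tcf21iCre and Tomato alone, taken at 3 months and at 2 months. All mice were male and had the left coronary artery ligated at 8 weeks of age. MGTH2A is a transgene that encodes Mef2c, Gata4, Tbx5 and Hand2, factors that switch on heart muscle genes. Cre under Tcf21 marks fibroblasts, so the transgene is directed to them and not to the myocytes that the heart already has. All groups were infarcted, and no uninjured heart was analysed here.

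In a heart muscle cell, the action potential opens L-type calcium channels in the surface membrane. The calcium that enters opens ryanodine receptors in the facing membrane of the sarcoplasmic reticulum, and the calcium released there triggers contraction. For relaxation, the pump SERCA2, encoded by Atp2a2, returns calcium to the reticulum under the brake of phospholamban (Pln), and the exchanger NCX1 (Slc8a1) moves the remainder out of the cell. Inside the reticulum, calsequestrin (Casq2) and the histidine-rich calcium-binding protein (Hrc) buffer the store. Triadin (Trdn) and junctin, a product of Asph, tie calsequestrin to the release channel, and junctophilin (Jph2) holds the 2 membranes together.

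None of the 10 genes passed the test in any comparison. All 8 members that the array could resolve had a higher mean in TTg hearts than in Ctrl hearts at 3 months, by 0.14 to 0.92 on the log2 scale, where 50.9% of all features had a higher mean and 48.3% a lower one. Ryr2 and Slc8a1 had the largest differences, and Jph2 took the other sign, −0.17, when Ctrl replicate 1 at 3 months was left out. Across time in Ctrl hearts the members divided: Jph2, Ryr2, Cacna1c, Asph, Slc8a1 and Casq2 had higher means at 3 months than at 2 months, and Trdn and Hrc had lower ones, where 50.5% of all features were higher and 48.8% lower. This rested in part on Ctrl replicate 1 at 2 months, without which Cacna1c was −0.31 and Slc8a1 −0.14. The other members of both directions kept their signs without it. Pln and Atp2a2 lay at the top of the scale, where the array cannot show a difference. The test was limma's moderated test over all 22206 features, with a call at an adjusted p under 0.05. Differences are given as the log2 difference of group means ± SE from that fit, where n = 2 in each group. Permuting 2 arrays against 2 in an exact test can give no two-sided p below 0.333.

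The promoters of Ryr2, Slc8a1 and Jph2 are shown because each of these 3 genes had another of them as the nearest member in its values across the 6 arrays. Each window runs from 250 bases before to 50 bases after a RefSeq start site on build GRCm38.p6, and is read 5′ to 3′ on the gene's strand. Capitals mark matches on either strand to 4 short patterns named for the transgene's factors. The MEF2 pattern is CTA and TAG with any 4 bases between them. The GATA pattern is AGATAA. The T-box pattern is AGGTGT, and the HAND pattern is CATCTG. The patterns do not overlap in these windows.
Ryr2, chr13:12106896-12107195, minus strand: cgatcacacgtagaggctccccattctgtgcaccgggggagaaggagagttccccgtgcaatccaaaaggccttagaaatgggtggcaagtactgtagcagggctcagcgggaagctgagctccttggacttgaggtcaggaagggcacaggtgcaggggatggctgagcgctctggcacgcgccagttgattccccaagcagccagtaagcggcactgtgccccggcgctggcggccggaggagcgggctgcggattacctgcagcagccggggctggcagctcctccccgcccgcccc
Slc8a1, chr17:81738338-81738637, minus strand: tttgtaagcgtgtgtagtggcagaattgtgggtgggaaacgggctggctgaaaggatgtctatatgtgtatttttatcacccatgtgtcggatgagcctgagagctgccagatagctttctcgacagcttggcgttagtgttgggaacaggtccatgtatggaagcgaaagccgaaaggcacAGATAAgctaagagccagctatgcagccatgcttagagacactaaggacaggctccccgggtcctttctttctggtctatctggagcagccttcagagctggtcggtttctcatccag
Jph2, chr2:163397944-163398243, minus strand, first of 2 windows: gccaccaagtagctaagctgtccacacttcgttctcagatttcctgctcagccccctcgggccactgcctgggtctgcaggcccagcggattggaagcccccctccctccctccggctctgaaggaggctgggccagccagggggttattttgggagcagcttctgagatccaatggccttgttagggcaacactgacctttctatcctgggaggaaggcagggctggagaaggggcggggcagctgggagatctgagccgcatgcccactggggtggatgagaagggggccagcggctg
Slc8a1 held 1 GATA pattern, 68 bases before its start, and the Ryr2 and Jph2 windows held none of the 4 patterns. RefSeq windows were at hand for 7 of the 10 members, 10 windows in all. In the others, Pln held 1 GATA pattern, the second of 3 Cacna1c windows held 1 T-box and 1 HAND pattern, and the third held 1 HAND pattern. Among 32851 windows of all genes, 3.69% held the MEF2 pattern, 11.2% the GATA pattern, 13.7% the T-box pattern and 17.2% the HAND pattern, and 38% held at least 1 of the 4. A match describes letters and not a bound site.

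The deposited values were on a log2 scale whose highest value, 19.93, was shared by 15 to 17 features on each array. Array medians lay between 4.91 and 5. Features for the transgene's factors do not separate its transcripts from those of the mouse's own genes. Tbx5 measured 10.72 and 9.31 in TTg hearts, against 6.42 and 7.47 in Ctrl hearts at 3 months and 7.79 and 7.98 at 2 months. Mef2c measured 15.93 and 13.94 in TTg hearts, against 12.52 and 12.87 in Ctrl hearts at 3 months and 12.16 and 12.07 at 2 months. Gata4 had a difference of 0.26 ± 0.31 and Hand2 one of 0.98 ± 0.44 between TTg and Ctrl hearts at 3 months. Heart muscle identity was plain: the 25 measured cardiomyocyte markers averaged 16.65 to 17 on every array. A pair of Ctrl arrays stood apart. Replicate 1 at 2 months had fast skeletal muscle genes, with Myh2 at 10.51 against 3.31 to 3.81 on the other 5 arrays, and replicate 2 at 3 months had little atrial signal, with Myl7 at 3.45 against 9.73 to 12.39 elsewhere. Where a difference of a calcium gene printed below turned or moved by over 1.5 times without either of them, it is given both ways.

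Ryr2, the channel that releases the stored calcium, measured 16.06 and 16.49 in TTg hearts, against 14.95 and 15.90 in Ctrl hearts at 3 months and 14.18 and 15.23 in Ctrl hearts at 2 months. Both TTg values lay above all 4 Ctrl values, whereas the Ctrl groups overlapped. The difference was 0.85 ± 0.45 against Ctrl at 3 months (1.80-fold, 95% interval 0.867 to 3.75-fold, limma adjusted p = 0.717). It was 1.57 ± 0.45 against Ctrl at 2 months (2.97-fold, 95% interval 1.43 to 6.17-fold, adjusted p = 0.389). The first of these was 0.38 without Ctrl replicate 1 at 3 months and 1.33 without Ctrl replicate 2, and without Ctrl replicate 1 at 2 months the second was 1.05.

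Slc8a1, which exports calcium in exchange for sodium, measured 14.38 and 14.32 in TTg hearts, against 13.18 and 13.69 in Ctrl hearts at 3 months and 12.13 and 13.58 in Ctrl hearts at 2 months. The TTg hearts were again above all 4 Ctrl hearts and lay close together. The difference was 0.92 ± 0.46 against Ctrl at 3 months (adjusted p = 0.705 in limma) and 1.49 ± 0.46 against Ctrl at 2 months (adjusted p = 0.409). Leaving out any 1 array moved the 3-month difference between 0.66 and 1.17. The 2-month difference was 0.77 without Ctrl replicate 1 at 2 months, the lowest Slc8a1 value of the series.

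Cacna1c, the pore of the L-type channel that starts release, measured 15.76 and 16.29 in TTg hearts, against 15.11 and 15.85 in Ctrl hearts at 3 months and 13.80 and 15.79 in Ctrl hearts at 2 months. The groups overlapped in all 3 comparisons. Its Ctrl hearts at 2 months differed from each other by 1.99, the widest gap within a group for any member. The differences were 0.54 ± 0.62 for TTg against Ctrl at 3 months and 1.23 ± 0.62 for TTg against Ctrl at 2 months (adjusted p = 0.885 and 0.576 in limma). The first of these was 0.17 without Ctrl replicate 1 at 3 months, 0.92 without Ctrl replicate 2 and 0.28 without TTg replicate 2. The second was 0.23 without Ctrl replicate 1 at 2 months and 2.23 without Ctrl replicate 2.

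Jph2, which spaces the surface membrane from the reticulum, measured 11.55 and 11.76 in TTg hearts, against 10.74 and 11.83 in Ctrl hearts at 3 months and 9.81 and 10.50 in Ctrl hearts at 2 months. TTg hearts lay inside the range of Ctrl hearts at 3 months, and both 3-month groups lay above the 2-month group. TTg differed from Ctrl at 3 months by 0.37 ± 0.41 (adjusted p = 0.881 in limma), and the value was −0.17 without Ctrl replicate 1 at 3 months and 0.92 without Ctrl replicate 2. Against Ctrl at 2 months the difference was 1.50 ± 0.41 in TTg hearts (2.83-fold, 95% interval 1.45 to 5.51-fold, adjusted p = 0.370). Ctrl hearts at 3 months differed from Ctrl hearts at 2 months by 1.13 ± 0.41 (2.19-fold, 95% interval 1.12 to 4.26-fold, adjusted p = 0.563), the largest difference of any member with time, and by 0.58 without Ctrl replicate 2 at 3 months.

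**Figure D1:**
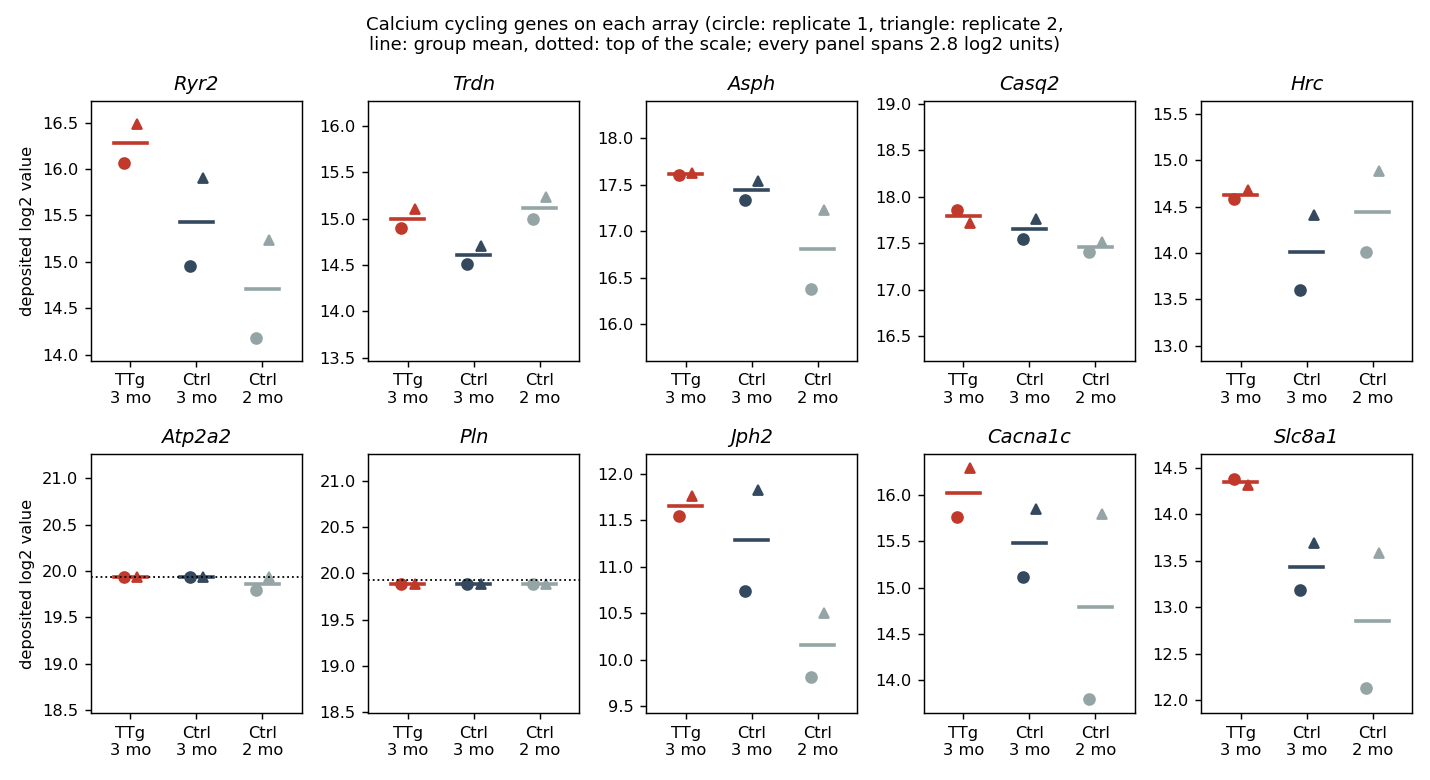
Deposited log2 values of the 10 calcium cycling genes on each array, with circles for replicate 1, triangles for replicate 2 and lines for group means (n = 2). TTg hearts lie above both Ctrl groups for Ryr2, from 16.06, and for Slc8a1, from 14.32, while Pln stands at 19.89 on every array.

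Asph, which encodes junctin along with an aspartyl hydroxylase, measured 17.61 and 17.63 in TTg hearts, against 17.34 and 17.54 in Ctrl hearts at 3 months and 16.38 and 17.23 in Ctrl hearts at 2 months. Its 3 groups did not overlap, and they ran in the order TTg, Ctrl at 3 months, Ctrl at 2 months. The difference was 0.18 ± 0.32 for TTg against Ctrl at 3 months (adjusted p = 0.941 in limma) and 0.81 ± 0.32 for TTg against Ctrl at 2 months (adjusted p = 0.491). The first of these was 0.08 without Ctrl replicate 1 at 3 months and 0.28 without Ctrl replicate 2. The second was 0.39 without Ctrl replicate 1 at 2 months and 1.24 without Ctrl replicate 2. Because one feature covers the whole gene, junctin was not separated from the hydroxylase.

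Trdn, the triadin that anchors calsequestrin at the release channel, measured 14.90 and 15.10 in TTg hearts, against 14.51 and 14.71 in Ctrl hearts at 3 months and 15.00 and 15.23 in Ctrl hearts at 2 months. TTg hearts were above Ctrl hearts of the same age and overlapped the 2-month group. TTg differed from Ctrl at 3 months by 0.39 ± 0.24 (adjusted p = 0.761 in limma). Ctrl hearts at 3 months were below Ctrl hearts at 2 months by −0.51 ± 0.24 (adjusted p = 0.650), the reverse of Jph2, and the sign held with any 1 array left out, from −0.62 to −0.39. TTg differed from Ctrl at 2 months by −0.12 ± 0.24 (adjusted p = 0.914), and by −0.23 without Ctrl replicate 1.

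Among the luminal proteins, Hrc measured 14.58 and 14.68 in TTg hearts, against 13.60 and 14.41 in Ctrl hearts at 3 months and 14.01 and 14.88 in Ctrl hearts at 2 months. TTg hearts lay above Ctrl hearts at 3 months and between the hearts of the 2-month group. The difference was 0.62 ± 0.38 against Ctrl at 3 months (adjusted p = 0.763 in limma), and 0.19 ± 0.38 against Ctrl at 2 months (adjusted p = 0.915). The first of these was 0.22 without Ctrl replicate 1 at 3 months and 1.03 without Ctrl replicate 2. The second was −0.25 without Ctrl replicate 1 at 2 months and 0.62 without Ctrl replicate 2.

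Casq2, the main calcium buffer of the store, measured 17.86 and 17.72 in TTg hearts, against 17.55 and 17.76 in Ctrl hearts at 3 months and 17.41 and 17.51 in Ctrl hearts at 2 months. It varied least of the 8 resolved members, by 0.45 over all 6 arrays, although its values are also the nearest of the 8 to the top of the scale. TTg differed from Ctrl at 3 months by 0.14 ± 0.23 and from Ctrl at 2 months by 0.33 ± 0.23 (adjusted p = 0.939 and 0.695 in limma). The first of these was 0.03 without Ctrl replicate 1 at 3 months, 0.24 without Ctrl replicate 2, 0.07 without TTg replicate 1 and 0.21 without TTg replicate 2. The 95% interval of the 3-month comparison, 0.756 to 1.59-fold, is for the deposited values. Whether values this near the top of the scale show a difference in full was not tested.

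The pump and its inhibitor could not be compared. Pln read 19.89 on all 6 arrays. Atp2a2 read 19.80 in Ctrl replicate 1 at 2 months and 19.93, the top value, on the other 5 arrays. Both were the only members at 19 or more, and both were there on every array. Of 30 features at 19 or more on every array, 16 varied by less than 0.05, whereas 1 feature below 19 on every array did so. No fold change is therefore given for Atp2a2 or Pln, and the balance of pump and inhibitor was not measured.

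In the comparison of TTg with Ctrl hearts at 3 months, which bears on the effect of the transgene, 0 of 10 members passed limma's test, and 0.0045% of all features did. At an unadjusted p under 0.05 there were also 0 members, where 3.35% of all features were higher and 4.11% lower. Groups did not overlap, with TTg higher, for 5 members (Ryr2, Slc8a1, Hrc, Trdn and Asph), against 19.1% of all features. For 0 members were the TTg hearts wholly below, against 19.3% of all features. The median difference of the 10 members was 0.38, and that of all features was 0.01. Over the 510 features with a mean from 14 to 17, a range that holds 4 of the members, the median was 0.07. These shares describe a set chosen with earlier results known and were not tested as a set. The median was 0.13 without Ctrl replicate 1 and 0.70 without Ctrl replicate 2.

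With time in Ctrl hearts, at 3 against 2 months, 0 of 10 members passed limma's test, as did 0.0045% of all features. Jph2 alone reached an unadjusted p under 0.05, at 0.0273, where 3.91% of all features were higher at that level and 4.09% lower. Values did not overlap with 3 months higher for Jph2, Asph and Casq2, against 18.3% of all features, and with 3 months lower for Trdn, against 17.4%. Ryr2 differed by 0.72 ± 0.45, Cacna1c by 0.69 ± 0.62 and Slc8a1 by 0.58 ± 0.46. Asph differed by 0.635 ± 0.32, Casq2 by 0.195 ± 0.23 and Hrc by −0.44 ± 0.38. The pattern rested in part on replicate 1 at 2 months: without it Cacna1c stood at −0.31 and Slc8a1 at −0.14, Ryr2 at 0.20 and Jph2 at 0.78. Also without it, 4 members instead of 7 had the higher mean at 3 months, where the 7 include Atp2a2 at the top of the scale. Asph stood at 0.21 and Hrc at −0.88. The median of the members was 0.39 with that array and 0.00 without it. Without replicate 2 at 3 months, the array with little atrial signal, Ryr2 stood at 0.24, Cacna1c at 0.32, Slc8a1 at 0.33, Casq2 at 0.09 and Hrc at −0.84.

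Against Ctrl hearts at 2 months, TTg hearts at 3 months differed in both genotype and time. Again 0 of 10 members passed limma's test, as did 0% of all features. Ryr2, Jph2, Slc8a1 and Asph reached an unadjusted p under 0.05, from 0.00768 for Jph2 to 0.0364 for Asph, where 4.3% of all features were higher at that level and 5.41% lower. Means were higher in TTg hearts for 8 members, against 52.1% of all features, and lower for Trdn alone, against 47.3%. These 8 include Atp2a2, which lay at the top of the scale, and so are not the 8 resolved members. Values did not overlap with TTg higher for Ryr2, Jph2, Slc8a1, Asph and Casq2, against 21.2% of all features. The median of the members was 0.57, against 0.02 for all features, and it was 0.26 without Ctrl replicate 1 at 2 months. This comparison shares its TTg hearts with the genotype comparison and its 2-month hearts with the time comparison, so the 3 sets of values are not independent.

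**Figure D2:**
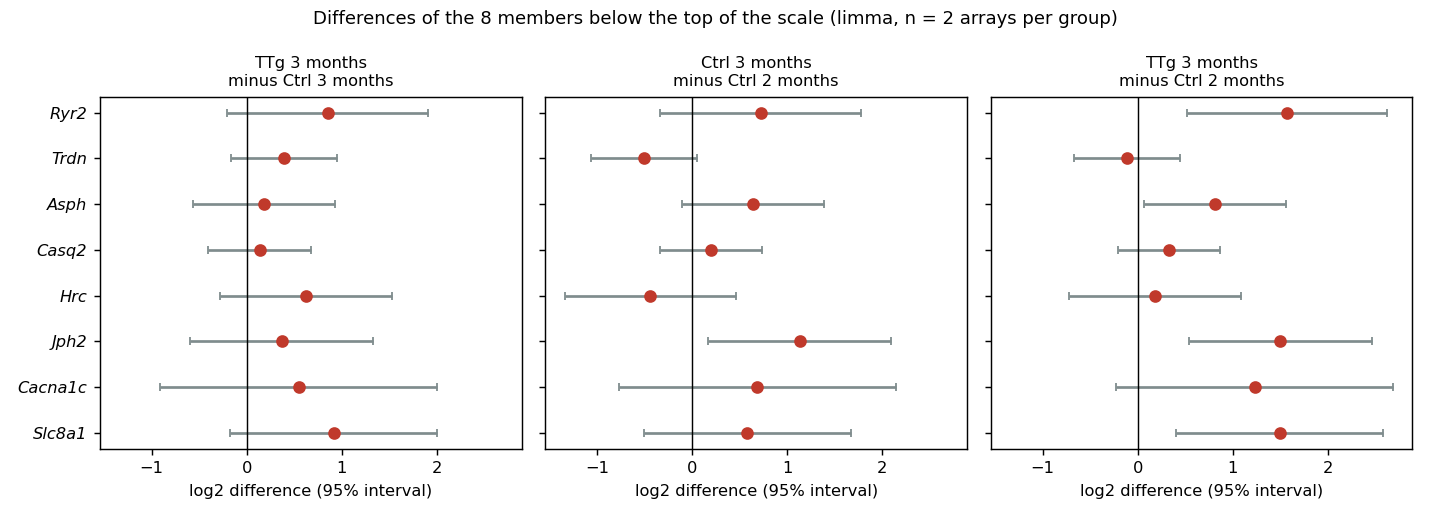
Log2 differences of the 8 members below the top of the scale in the 3 comparisons, as points with 95% intervals from limma (n = 2 arrays per group). All 8 points of the genotype comparison lie above 0 with intervals that include 0, and with time in Ctrl hearts Trdn and Hrc lie below 0, at −0.51 and −0.44.

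The members followed the replicates as well as the groups. Replicate 2 was higher than replicate 1 for 8 of the 8 resolved members in Ctrl hearts at 3 months and for 8 of 8 at 2 months, where 47.9% and 51.9% of all features were. In TTg hearts it was higher for 6 of 8, against 48.5% of all features. Array means of the 8 members were 15.34 and 15.50 in TTg hearts, against 14.62 and 15.21 in Ctrl hearts at 3 months and 14.09 and 14.99 at 2 months.

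Markers of other cells were read on the same arrays, and their lists differed in direction. In whole-heart RNA, fewer cells of a type and less RNA per cell cannot be told apart. Array means of 11 fibroblast genes were 11.79 and 10.58 in TTg hearts, against 13.38 and 12.33 in Ctrl hearts at 3 months and 13.33 and 11.59 at 2 months, higher in replicate 1 of each group. All 11 had a lower mean in TTg than in Ctrl hearts at 3 months, with a median difference of −1.70. Array means of 11 macrophage genes were 7.94 and 7.42 in TTg hearts, against 9.86 and 8.40 in Ctrl hearts at 3 months and 9.64 and 8.67 at 2 months. None of these markers passed limma's test in that comparison, and 4 fibroblast and 5 macrophage genes were lower at an unadjusted p under 0.05, where 4.11% of all features were. Array means of 9 endothelial genes were 11.37 and 10.99 in TTg hearts, against 11.44 and 11.07 in Ctrl hearts at 3 months and 11.40 and 11.01 at 2 months. Those of 10 smooth muscle and pericyte genes were 9.32 and 9.09 in TTg hearts, against 9.03 and 9.16 in Ctrl hearts at 3 months and 8.90 and 8.70 at 2 months. Array means of 7 atrial genes were 13.41 and 12.32 in TTg hearts, against 11.74 and 7.66 in Ctrl hearts at 3 months and 11.25 and 12.02 at 2 months. These means were higher in both TTg hearts than in all 4 Ctrl hearts. That order depended on Bmp10, without which the mean of TTg replicate 2 lies below that of Ctrl replicate 1 at 3 months. Of the single genes, only Myl7 and Bmp10 had both TTg values above all 4 Ctrl values. In TTg against Ctrl hearts at 3 months 5 of the 7 had a higher mean, with a median difference of 3.89, and without Ctrl replicate 2 there were 3 and the median was −0.23. None passed the test, and 3 were higher at an unadjusted p under 0.05, where 3.35% of all features were. Bmp10, an atrial growth factor, measured 11.92 and 11.46 in TTg hearts, against 2.87 and 3.04 in Ctrl hearts at 3 months and 2.40 and 6.88 at 2 months. The part of these cells in the differences of the calcium genes was not tested.

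Other myocyte genes were set beside these. The 25 measured cardiomyocyte markers, which hold sarcomere and structural genes and none of the calcium genes, had array means of 16.90 and 16.94 in TTg hearts, against 16.65 and 17 in Ctrl hearts at 3 months and 16.65 and 16.90 at 2 months. Their median difference was 0.03 for TTg against Ctrl at 3 months, with 16 higher and 7 lower. Because 6 of the 25 reached 19 or more, the mean of the remaining 19 was also taken, at 15.98 and 16.03 in TTg hearts, against 15.70 and 16.11 in Ctrl hearts at 3 months and 15.68 and 15.98 at 2 months. With each array centred on the 25 markers, Ryr2 differed by 0.75 and Slc8a1 by 0.82 between TTg and Ctrl hearts at 3 months, and Casq2 by 0.04. The part of myocyte content in the differences of the calcium genes was not tested. Skeletal muscle genes averaged 5.06 and 4.84 in TTg hearts, against 5.27 and 5.35 in Ctrl hearts at 3 months, and 7.76 and 4.98 at 2 months. Acta1, far above the rest of that list, carried the gap between the 3-month groups. It measured 16.72 and 12.78 in TTg hearts, against 18.57 and 19.30 in Ctrl hearts at 3 months and 17.13 and 15.97 at 2 months. The 2-month array with skeletal muscle signal was also the one with the lowest mean of the calcium genes.

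**Figure D3:**
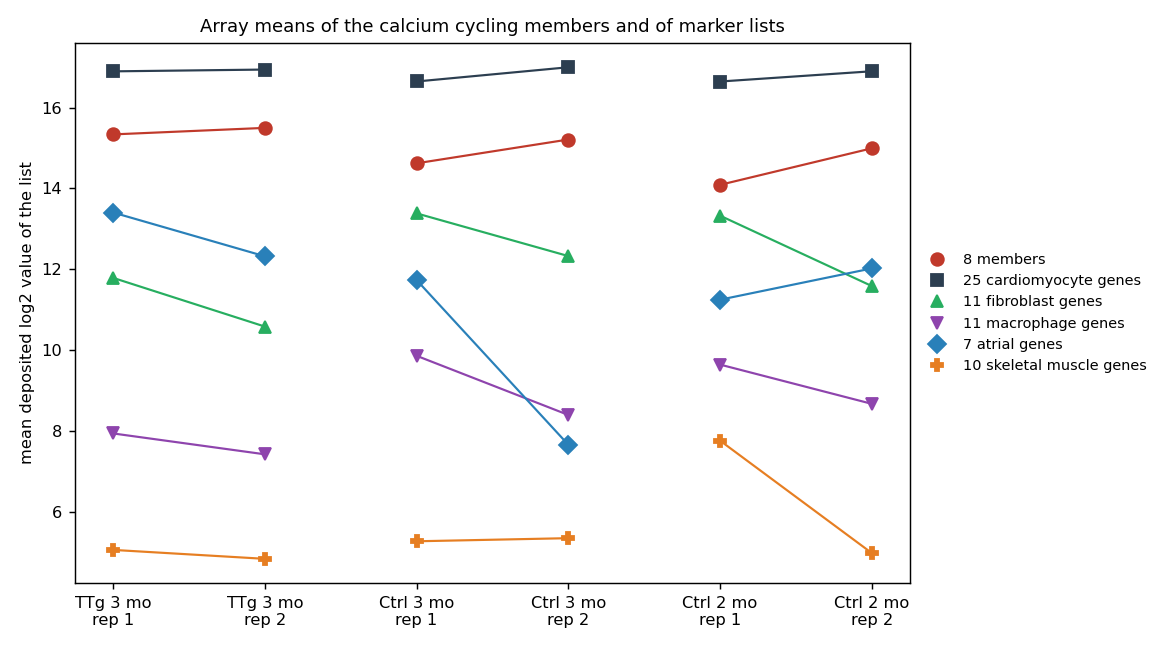
Mean deposited log2 value of the 8 resolved members and of marker lists on each array, with lines joining the 2 replicates of a group. Member means are lowest in Ctrl replicate 1 at 2 months, at 14.09, where the skeletal muscle list is highest, at 7.76, and fibroblast means are higher in replicate 1 of every group.

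How alike the members were was measured as the root mean square difference of their values after each gene's own mean was removed. Ryr2 and Slc8a1 were nearest to each other, at 0.23. Jph2 was nearest to Ryr2, at 0.25, and Cacna1c to Slc8a1, at 0.29. Hrc was nearest to Trdn, at 0.29, and Asph to Casq2, at 0.31. Casq2 and Trdn, which varied little, were nearest to Atp2a2, at 0.13, and Pln, at 0.24, and Pln and Atp2a2 to each other, at 0.05. Trdn was the member farthest from Ryr2, Slc8a1, Cacna1c, Jph2 and Asph. Among 13840 other features with 1 symbol and a signal above the lowest 30%, those nearest to the mean pattern of the 10 members were Lclat1 (0.05), Cog6 (0.06), Abtb2 (0.07), Slc9a3 (0.07) and Sympk (0.07). With 6 arrays, such nearness among so many features is a description only.

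The wider calcium machinery was followed in 5 lists, with 54 of 67 genes measured. None of these genes passed limma's test in any comparison. Between TTg and Ctrl hearts at 3 months, 1 of them, Itpr2, reached an unadjusted p under 0.05, at 0.0337, where 3.35% of all features were higher at that level and 4.11% lower. Among 10 genes of calcium uptake and its regulation, 6 had a higher and 4 a lower mean in TTg than in Ctrl hearts at 3 months (median 0.11). Sarcolipin (Sln), an inhibitor of the pump in atria, measured 14.36 and 12.73 in TTg hearts, against 13.78 and 5.53 in Ctrl hearts at 3 months and 13.50 and 14.45 at 2 months. Its difference from Ctrl at 3 months was 3.89 ± 2.25, and −0.23 without the Ctrl array with little atrial signal, which read 5.53. With time in Ctrl hearts Sln differed by −4.32 ± 2.25, and by −0.195 without that array. Hax1, a partner of phospholamban, differed by 0.53 ± 0.25 between TTg and Ctrl hearts at 3 months. S100a1, a calcium sensor that acts on the pump and the release channel, measured 14.02 and 13.80 in TTg hearts, against 14.36 and 14.31 in Ctrl hearts at 3 months and 15.38 and 15.03 at 2 months. Its groups did not overlap and ran in the opposite order to Ryr2, at −0.87 ± 0.24 for Ctrl at 3 against 2 months and −1.29 ± 0.24 for TTg against Ctrl at 2 months (adjusted p = 0.496 and 0.340 in limma). Ppp1ca, a catalytic subunit of the phosphatase that acts on phospholamban, differed by −0.96 ± 0.23 for TTg against Ctrl at 2 months (adjusted p = 0.340).

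Of 12 partners and kinases of the release channel, 7 had a higher and 5 a lower mean in TTg than in Ctrl hearts at 3 months (median 0.09). Itpr2, the other type of calcium release channel of myocytes, differed by 0.79 ± 0.30 and Prkar1a, a regulatory subunit of protein kinase A, by −0.81 ± 0.38. With time in Ctrl hearts Prkar1a had the other sign, at 0.84 ± 0.38. Akap6, which anchors protein kinase A near the release channel, had a difference of 1.05 ± 0.47 with time in Ctrl hearts and 1.21 ± 0.47 for TTg against Ctrl at 2 months. Speg, a kinase of the junctional membrane, had one of 1.27 ± 0.52 for TTg against Ctrl at 2 months. For both, Ctrl replicate 1 at 2 months was the low array, with Akap6 at 11.94 and Speg at 6.87. Without it, Akap6 differed by 0.29 with time and by 0.45 for TTg against Ctrl at 2 months, Speg by 0.45 in that comparison, and Prkar1a by 0.30 with time.

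Of 9 genes for L-type channel partners and the membrane junction, 7 had a higher mean in TTg than in Ctrl hearts at 3 months (median 0.25). Cmya5, which tethers the junction to the sarcomere, differed by 0.75 ± 0.52, or 1.25 without Ctrl replicate 2 at 3 months, and Bin1, which shapes the transverse tubules, by −0.70 ± 0.34. For TTg against Ctrl at 2 months Cmya5 differed by 0.805 ± 0.52, and by 0.075 without Ctrl replicate 1 at 2 months. Dysferlin (Dysf), a membrane repair protein found at the tubules, measured 8.63 and 8.94 in TTg hearts, against 8.80 and 9.03 in Ctrl hearts at 3 months and 7.54 and 7.94 at 2 months. Both 3-month groups were above the 2-month hearts, as for Jph2, with 1.18 ± 0.26 in Ctrl and 1.04 ± 0.26 in TTg hearts (adjusted p = 0.406 and 0.343 in limma). Cacna2d1, an auxiliary subunit of the channel, differed by 0.67 ± 0.38 with time in Ctrl hearts, by 0.20 without replicate 1 at 2 months and by 0.33 without replicate 2 at 3 months.

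Of 10 measured genes for other routes of calcium entry and removal, 5 were higher and 5 lower in TTg than in Ctrl hearts at 3 months (median −0.04), from −0.40 ± 0.25 for Slc8b1, the sodium-calcium exchanger of mitochondria, to 0.46 ± 0.25 for Letm1, another mitochondrial carrier protein. With time in Ctrl hearts, the cation channel Trpc1 differed by 0.69 ± 0.37 and the store sensor Stim1 by −0.59 ± 0.28, and for TTg against Ctrl at 2 months by 0.79 ± 0.37 and −0.68 ± 0.28. Without Ctrl replicate 1 at 2 months, Trpc1 differed by 0.14 and 0.24. Paralogs typical of other muscle or tissue had a median of 0.14 over 13 genes in the genotype comparison. Cacna1s, the skeletal muscle channel, differed by 0.79 ± 0.41 and Casq1, the skeletal calsequestrin, by −1.06 ± 0.82. With time in Ctrl hearts, Atp2a1, the fast muscle pump, differed by −1.40 ± 0.94, and by 0.29 without Ctrl replicate 1 at 2 months. For TTg against Ctrl at 2 months Atp2a1 differed by −1.215 ± 0.94, and by 0.475 without that array. It measured 6.92 in that array against 3.49 to 4.20 on the other arrays. Casq1 was also highest there, at 8.23. Jph1, the skeletal junctophilin, was lowest in the same array, at 5.26, and differed by 0.76 ± 0.39 with time in Ctrl hearts and by 1.02 ± 0.39 for TTg against Ctrl at 2 months. Without that array these were 0.18 and 0.44.

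**Figure D4:**
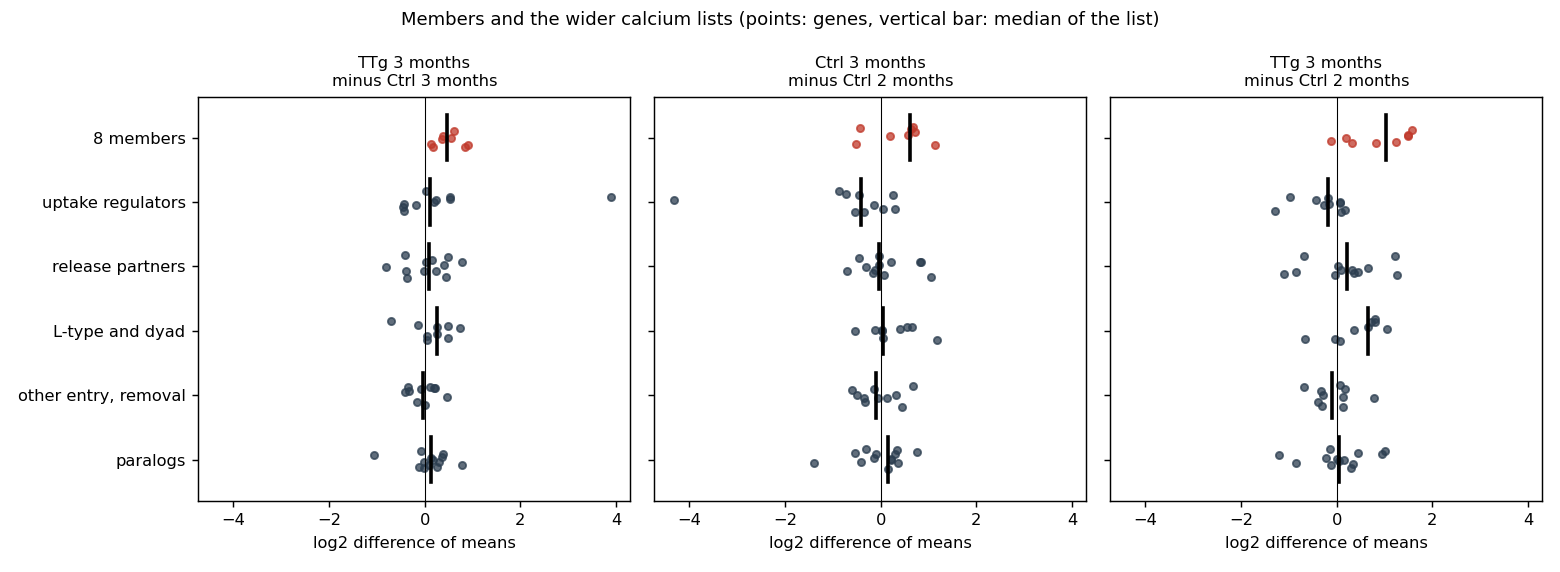
Log2 differences of the 8 resolved members (red) and of the measured genes of the 5 wider lists (dark) in the 3 comparisons, with a vertical bar at each list's median. In the genotype comparison the members have a median of 0.47 and the lists medians from −0.04 to 0.25, with Sln at 3.89 the farthest point, which is −0.23 without Ctrl replicate 2 at 3 months.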

How the data were processed

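The authors deposited log2 values per feature of Clariom S mouse arrays. The submitters' processing notes name Transcriptome Analysis Console 4.0. How features were summarized, corrected for background and normalized is not given in the sources used here. Per the labels' protocols, each array took 100 ng of heart RNA (integrity number above 7.0). The values were used as deposited. Symbols came from the platform annotation, updated by Entrez ID: 19572 features had 1 symbol and 2634 none. Group means were fitted over all 6 arrays with limma 3.58.1 in R 4.3.3 (3 residual and 4.13 prior degrees of freedom). Tests were two-sided, with Benjamini-Hochberg adjustment over all features. With 2 arrays per group, their number limits the precision. The pipeline was tested on simulated data. The members, the wider lists and the marker lists were chosen with earlier results of these data known. Named genes were all members, the transgene factors, the 5 features nearest to the members, and in each wider list the 2 largest differences per comparison. Skeletal muscle and atrial genes given per array were chosen after their values were seen. Alternatives changed the prior, the normalization, the filter on dim features, the arrays in the fit and the replicate block.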

Additional observations from a re-analysis of the deposited data

How the results depend on the processing

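No member passed limma's test under any of the settings tried, with adjusted p-values from 0.110 for Ryr2 in TTg against Ctrl at 2 months upward. Of 140 member differences under alternative settings in each comparison, 1, 2 and 2 changed sign. Many of the 140 could not do so. Changing the prior, dropping dim features, fitting the 2 groups alone or adding the replicate block leaves a difference of group means as it is. So does leaving out an array of the third group. A difference of 0, as for Pln, was not counted as turned either. Jph2 was −0.17 in TTg against Ctrl at 3 months without Ctrl 3-month replicate 1. Without Ctrl 2-month replicate 1, Cacna1c was −0.31 and Slc8a1 −0.14 for Ctrl at 3 against 2 months, and Hrc was −0.25 for TTg against Ctrl at 2 months. With arrays centred on the cardiomyocyte markers, Atp2a2 was −0.082 in the last comparison. Because Atp2a2 lies at the top of the scale, this value does not measure a difference of the pump. The number of all features past the threshold was small and moved between settings. For TTg against Ctrl at 3 months it was 1, and 2 with those 2 groups alone, 11 with the replicate block and 0 to 2 with 1 array left out. For Ctrl at 3 against 2 months it was 1, and 0 with an intensity trend in the prior, with quantile normalization and without dim features, and 0 to 6 with 1 array left out. For TTg against Ctrl at 2 months it was 0, and 1 with a robust prior, 5 with the replicate block and 0 to 22 with 1 array left out. The cause of these shifts was not tested.

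In TTg against Ctrl at 3 months, leaving out 1 array gave 7 to 8 members with a higher mean, 5 to 8 without overlap upward, and Jph2 from −0.17 to 0.92. For Ctrl at 3 against 2 months these were 4 to 7 and 3 to 7, Cacna1c ran from −0.31 to 1.68 and Slc8a1 from −0.14 to 1.31. For TTg against Ctrl at 2 months they were 6 to 8 and 5 to 8, and Hrc ran from −0.25 to 0.62. These counts run over all members, Atp2a2 and Pln included. Leaving out an array cannot undo a gap between groups, so the lower counts without overlap are those of all arrays. The upper counts set 2 hearts against 1, where a gap arises more easily. No share over all features is given beside them. The counts, and the values of wider and atrial genes without an array, were added after seeing the data. Of 40 such differences of wider genes, 16 moved by over 1.5 times and 3 of these turned. Deviations of same-numbered replicates correlated at 0.120 to 0.136 between groups over all features and at 0.418 to 0.575 over the 8 resolved members. With 2 numbers and no label on what they share, they were not taken as pairs. The replicate block gave Ryr2 an adjusted p of 0.367 in TTg against Ctrl at 3 months and 0.110 against Ctrl at 2 months, and changed no call of a member. A mean over repeated symbols was not run, since no member has more than 1 feature. Values at 19 or more limit Atp2a2 and Pln, and an array left out leaves a group with 1 heart, assumed to vary like the others.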

Other observations

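The release channel and triadin belong to the same protein complex of the myocyte, and their values were not parallel. Within each array, the log2 value of Ryr2 minus that of Trdn was 1.16 and 1.39 in TTg hearts, against 0.44 and 1.19 in Ctrl hearts at 3 months and −0.82 and 0.00 in Ctrl hearts at 2 months. Only the change of this value between arrays can be read, since 2 features differ in their probes. Slc8a1 minus Trdn was −0.52 and −0.78 in TTg hearts, against −1.33 and −1.02 in Ctrl hearts at 3 months and −2.87 and −1.65 at 2 months. Jph2 minus Trdn was −3.35 and −3.34 in TTg hearts, against −3.77 and −2.88 in Ctrl hearts at 3 months and −5.19 and −4.73 at 2 months. The Ctrl 2-month hearts were the lowest for all 3 genes, with either replicate, and so they were for Asph, Casq2 and Cacna1c minus Trdn. Trdn itself had its highest group mean in the Ctrl 2-month hearts. Hrc minus Trdn did not separate the groups, at −0.32 and −0.42 in TTg hearts, against −0.91 and −0.30 in Ctrl hearts at 3 months and −0.99 and −0.35 at 2 months. These differences were chosen after the values had been seen and were not tested.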
